A study of Homo sapiens with 6 samples.

Results

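The transcription factors described here are 9 genes that drive or mark the mesenchymal state: TWIST1, TWIST2, SNAI1, SNAI2, ZEB1, ZEB2, PRRX1, TCF21 and FOXC2. They were taken by gene name from a table of 20532 genes, in which each name had 1 row. RNA had been sequenced from ACHN, a human renal carcinoma line that the labels assign to clear cell renal cell carcinoma. Lentivirus had delivered a negative control hairpin (shCtrl, 3 libraries) or a hairpin against the co-chaperone gene DNAJC2 (shDNAJC2, 3 libraries), and the lines were stable. Both groups were thus transduced cells, and no untransduced cells were analysed here. Neither the number of hairpins used nor the number of separate transductions was stated, and each p-value describes variation among the libraries alone.

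In the epithelial-mesenchymal transition, cells lose adhesion and polarity and gain motility. SNAI1, SNAI2, ZEB1 and ZEB2 are zinc finger repressors that bind E-box DNA in the promoters of epithelial genes such as the cadherin gene CDH1, while TWIST1, TWIST2 and TCF21 are basic helix-loop-helix (bHLH) proteins that bind E-boxes as dimers with E proteins. PRRX1 is a homeobox factor and FOXC2 a forkhead factor of embryonic mesenchyme. In kidney development TCF21 acts in stromal cells and podocytes.

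All 9 factors were expressed, and TWIST1, TWIST2 and SNAI1 were lower in each of the 3 knockdown libraries than in each of the 3 control libraries. Their fitted levels were 60.1%, 81.6% and 71.7% of control. Among all tested genes, 8.43% were likewise lower without overlap. The other 6 factors overlapped between the groups. None of the 9, and none of all 13988 tested genes, passed over all 6 libraries. When the control library shCtrl 3 was left out TWIST1 alone of the 9 passed, at 53.3% of control. In that comparison 17.0% of all genes were called lower and 17.8% higher. That library was singled out after its likeness to the knockdown was seen, so these calls are descriptive.

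Total counts ranged from 17491462 to 25760291 over the 6 libraries, and the 9 genes had between 78 and 3536 counts each. Libraries shCtrl 3 and shDNAJC2 3 each stood apart from the rest of their group. Of 11345 genes with a mean of at least 5 CPM (TMM-normalized counts scaled to a common library size), 1218 were more than 2-fold apart in shCtrl 1 and 3, and 0 were that far apart in shCtrl 3 and shDNAJC2 2. In the knockdown, 199 and 164 genes were that far apart in shDNAJC2 3 and shDNAJC2 1 or 2, against 1 gene in shDNAJC2 1 and 2. Values are therefore given with and without shCtrl 3. Each library was left out in turn, but shCtrl 3 was singled out after its likeness to the knockdown libraries was seen. Removing a control that resembles the knockdown widens the difference for the genes in which it does so. P-values and calls without shCtrl 3 are therefore descriptive. Without shDNAJC2 3, edgeR called 0 of all genes in either direction, and so 0 of the 9 factors. Log2 fold changes were then −0.72 for TWIST1, −0.27 for TWIST2, −0.34 for SNAI1, −0.08 for SNAI2, 0.28 for ZEB1, 0.07 for ZEB2, −0.03 for PRRX1, −0.45 for TCF21 and −0.29 for FOXC2. DNAJC2 itself, the targeted gene, was at 76.7, 69.8 and 86.5 CPM (shCtrl 1 to 3) versus 51.2, 50.4 and 38.5 CPM (shDNAJC2 1 to 3), so for this gene shCtrl 3 lay with the controls. By exact permutation of the libraries (two-sided) p was 0.1, the smallest possible with 3 against 3. The fitted log2 fold change was −0.74 (edgeR adjusted p 0.429), or −0.65 without shCtrl 3 (adjusted p 0.00799).

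Several defining markers of the labelled renal epithelial identity were absent. Of 12 markers of the renal epithelial lineage 6 were too low to test, and HNF4A, CDH16 and EMX2 had 0 counts in every library. PAX2 had 1 count over all libraries. Only 4 of the 12, CDH6, KRT8, KRT18 and CA12, exceeded 5 CPM in any library (markers named by their level here were picked after their values were seen). Summed over the list, levels were 191 to 267 CPM in the controls and 178 to 187 CPM in the knockdown. Fibroblast and pericyte markers summed to 1590 to 4730 CPM in the controls and 1410 to 2060 CPM in the knockdown, and 11 of those 12 were expressed well enough to test, DPT being at 0. Most of each sum came from the collagen genes COL1A1, COL1A2 and COL3A1. COL1A1, a type I collagen gene, was at 2800, 2780 and 695 CPM (shCtrl 1 to 3) versus 572, 623 and 1070 CPM (shDNAJC2 1 to 3). The other tested markers on that list differed less over all 6 libraries. Their log2 fold changes were 0.05 (PDGFRA), −0.00 (RGS5), −0.03 (THY1 and FAP), −0.06 (LUM), −0.20 (DCN), −0.47 (PDGFRB) and −0.61 (CSPG4). Endothelial markers summed to 82.3 to 90.5 CPM and 76.9 to 84.3 CPM, most of it TEK, with CDH5 at 0 counts in every library. Immune markers summed to 80.5 to 94.6 CPM and 72.0 to 81.6 CPM, nearly all of it CD68, and CD3E, CD3D, MS4A1 and FCGR3A had 0 counts. Values of single libraries are given throughout in the order 1, 2, 3 of each group, controls first. In such bulk RNA, fewer cells of a kind and less RNA per cell cannot be told apart, and the part these markers play in the members' values was not tested.

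Among 13988 genes tested with edgeR's quasi-likelihood test, 0 were called higher and 0 lower in the knockdown after Benjamini-Hochberg adjustment (0.0% of genes in each direction, smallest adjusted p 0.429), and so 0 of the 9 factors were called. DESeq2 and limma-voom also called 0 of the 9, and DESeq2 gave FOXC2 no adjusted p. Over all genes DESeq2 called only 4 higher and 14 lower, and limma-voom 0 in either direction. At an unadjusted p under 0.05, 3 of the 9 were lower and 0 higher, against 7.33% of all genes lower and 4.0% higher. The 3 were TWIST1, TWIST2 and SNAI1. They were also the 3 without overlap between the groups, against 8.43% of all genes without overlap in that direction and 7.33% in the other. The median log2 fold change of the 9 was −0.12, with 7 negative and 2 positive values, against −0.02 and 47.7% positive over all genes. Without shCtrl 3, edgeR called 1 of the 9 lower (TWIST1) and 0 higher, against 17.0% of 14201 genes lower and 17.8% higher. In that comparison the groups did not overlap for 5 members that were lower (SNAI2 and PRRX1 joined the 3 above) and 1 that was higher (ZEB1), against 33.0% and 31.9% of all genes.

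**Figure D1:**
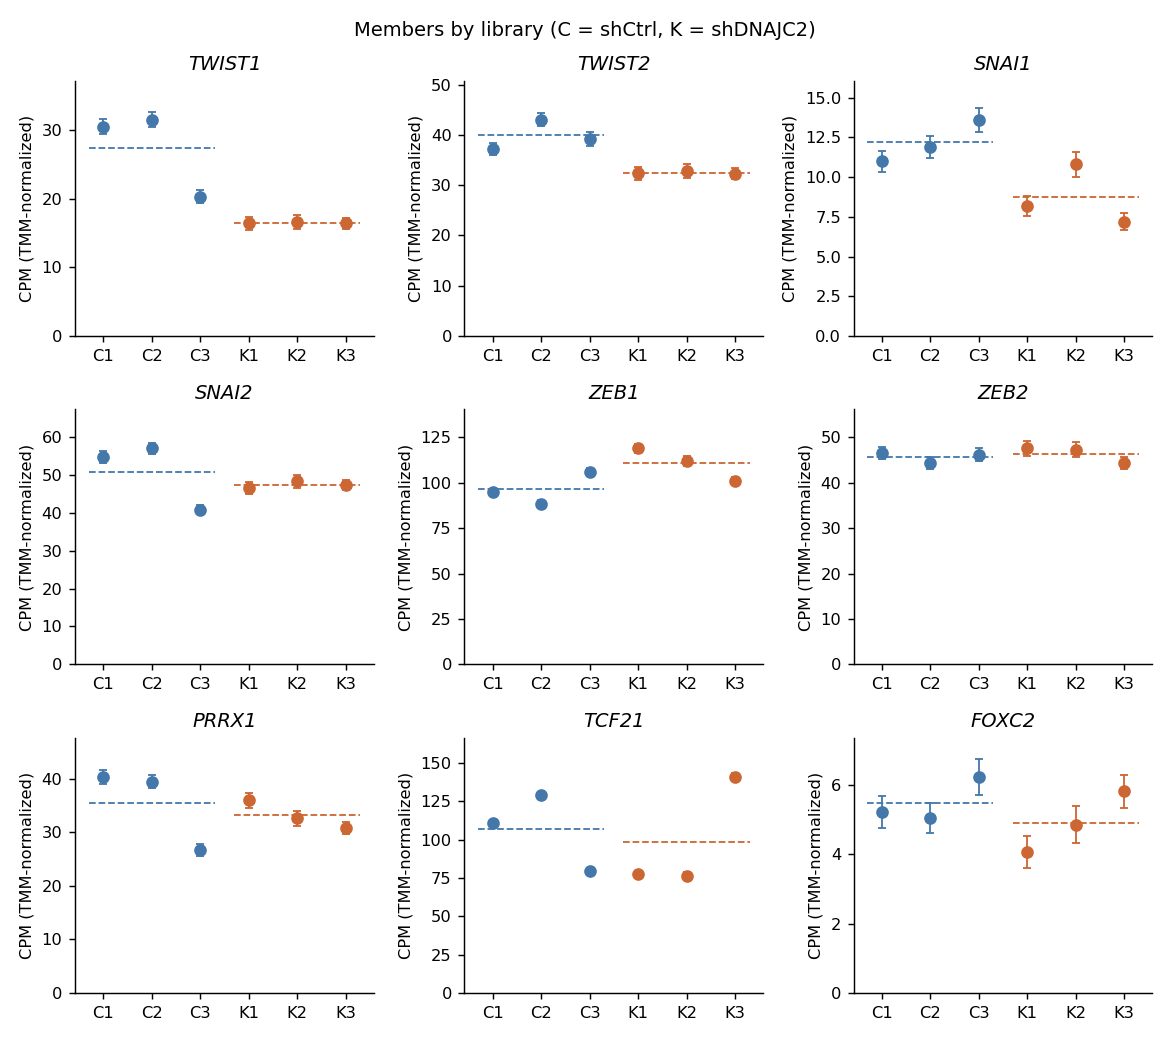
CPM (TMM-normalized, linear axes from 0) of each factor in shCtrl 1 to 3 (C1 to C3, blue) and shDNAJC2 1 to 3 (K1 to K3, orange). Error bars are 1 SD of counting error alone and dashed lines are group means. TWIST1 lay between 16.4 and 16.6 CPM in the 3 knockdown libraries and at 20.3 CPM or more in the controls.

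The GC content of a transcript went with its direction in these libraries. Among tested genes, 4167 had a GC content over 55% in their longest transcript, with a median log2 fold change of −0.19, and 20.1% of them were lower in the knockdown without overlap. Of the 5174 genes under 45%, the median was 0.11 and 0.908% were lower without overlap. TWIST1 (57.2%), TWIST2 (57%), SNAI1 (58.2%) and FOXC2 (63.2%) lay over 55%. SNAI2 (41.4%), ZEB1 (38.5%), ZEB2 (39.1%) and PRRX1 (41%) lay under 45%, and TCF21 (47.5%) between. So all 3 members that separated the groups were among the 4 of high GC content. With the GC trend of each library removed, TWIST1 alone of the 9 still separated the groups, and 4.95% of all genes were lower without overlap.

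TWIST1, a bHLH factor of cranial and limb mesenchyme, had the largest difference of the 9. The gene (ENSG00000122691, protein coding) is annotated on GRCh38 at chromosome 7, 19020991 to 19117672, minus strand. It was at 30.5, 31.5 and 20.3 CPM (shCtrl 1 to 3) versus 16.4, 16.6 and 16.4 CPM (shDNAJC2 1 to 3). The knockdown libraries were the 3 lowest, and shCtrl 3 lay nearer to them than to the other controls. The means came to 27.4 ± 6.19 and 16.5 ± 0.0919 CPM (SD, n = 3 each). The knockdown SD was smaller than the counting error of a single library, 0.81 to 1.0 CPM, and so understates the error. The fitted log2 difference was −0.74, standard error 0.18 (95% interval −1.17 to −0.30, unadjusted p 0.00546 and adjusted p 0.429 in edgeR), rank 73 by p among all genes. DESeq2 gave an adjusted p of 0.109. Without shCtrl 3 it was −0.91, standard error 0.11 (edgeR adjusted p 0.000719). With the GC trend removed it was −0.59 over all 6 libraries (edgeR adjusted p 0.607), and −0.77 without shCtrl 3 (adjusted p 0.00203). On the GC-adjusted log2 CPM scale TWIST1 was at 4.25 in shCtrl 3, close to the 4.22 of shDNAJC2 1.

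TWIST2, the closest relative of TWIST1 and a factor of dermal mesenchyme (ENSG00000233608, chromosome 2, 238848032 to 238910543, plus strand), differed less. It was at 37.3, 43.0 and 39.2 CPM (shCtrl 1 to 3) versus 32.4, 32.9 and 32.3 CPM (shDNAJC2 1 to 3), and here shCtrl 3 lay between the other controls. The means came to 39.9 ± 2.88 and 32.5 ± 0.316 CPM (SD, n = 3 each), and the log2 difference to −0.29 (95% interval −0.53 to −0.05, unadjusted p 0.0245 in edgeR). Without shCtrl 3 the value was −0.30, with an edgeR adjusted p of 0.0575. Removing the GC trend brought it to −0.15, and the groups then overlapped.

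The coding sequences of the TWIST pair, 609 and 483 bases in GENCODE 29, were 85.9% identical over 483 aligned bases, so whether reads could be shared between the copies was examined. The longest run in common was 23 bases, and no stretch of 50 bases was shared. The most alike window of 150 bases falls at coding positions 335 to 484 of TWIST1 and 209 to 358 of TWIST2, counted from the first base of the start codon. It is shown because it is where a read is hardest to place, and capitals mark the 10 bases at which the copies differ (93.3% identity).
TWIST1: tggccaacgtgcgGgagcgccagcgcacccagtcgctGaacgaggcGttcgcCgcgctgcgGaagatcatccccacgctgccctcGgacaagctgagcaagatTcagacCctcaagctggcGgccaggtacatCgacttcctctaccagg
TWIST2: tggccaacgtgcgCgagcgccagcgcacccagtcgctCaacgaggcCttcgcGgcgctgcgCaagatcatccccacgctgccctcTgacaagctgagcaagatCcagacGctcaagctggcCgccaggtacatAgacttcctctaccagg
The differences are spread along the window. How the authors' counting treated reads that fit both copies was not given in the sources used here.

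Within each library the 2 genes can be set against each other, which removes library size, and their GC contents are nearly equal. TWIST1 made up 45%, 42.3% and 34.1% of the pair's counts in shCtrl 1, 2 and 3. In shDNAJC2 1, 2 and 3 the share was 33.7%, 33.5% and 33.6%. The share in shCtrl 3 (95% Wilson interval 31.7 to 36.6%) was thus not distinguishable from the knockdown shares at this depth, while the intervals of shCtrl 1 (42.6 to 47.4%) and shCtrl 2 (40.1 to 44.5%) lay above all 3 knockdown intervals, whose upper bounds were at most 36.8%. Per kilobase of transcript, the TWIST1 share was 40.8%, 38.1% and 30.4% in the control libraries, and 30%, 29.8% and 29.9% after knockdown. The intervals and zero-count limits given here describe counting error alone and leave out variation between libraries. PCR copies, if counted, would make them too narrow.

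TCF21, the third bHLH factor (ENSG00000118526, chromosome 6, 133889138 to 133895553, plus strand), had the largest SD within each group. It was at 111, 129 and 79.5 CPM (shCtrl 1 to 3) versus 77.7, 76.6 and 141 CPM (shDNAJC2 1 to 3). The highest and the lowest value of all 6 both came from the knockdown, and shCtrl 3 lay close to shDNAJC2 1 and 2. The means came to 107 ± 25.0 and 98.3 ± 36.7 CPM (SD, n = 3 each), and the log2 fold change of −0.12 had a 95% interval of −0.80 to 0.57. Leaving out shDNAJC2 3 gave −0.45 (edgeR adjusted p 0.333). The antisense RNA gene TARID overlaps 1090 bases of a TCF21 exon on the other strand, and without a stated strand setting its reads cannot be told apart from those of TCF21. The same holds on a smaller scale for TWIST1, ZEB1, ZEB2 and FOXC2, which overlap annotated antisense genes by 94, 248, 502 and 145 exon bases. The limit also applies to the targeted gene DNAJC2, which overlaps the protein-coding gene PMPCB on the other strand by 580 exon bases.

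**Figure D2:**
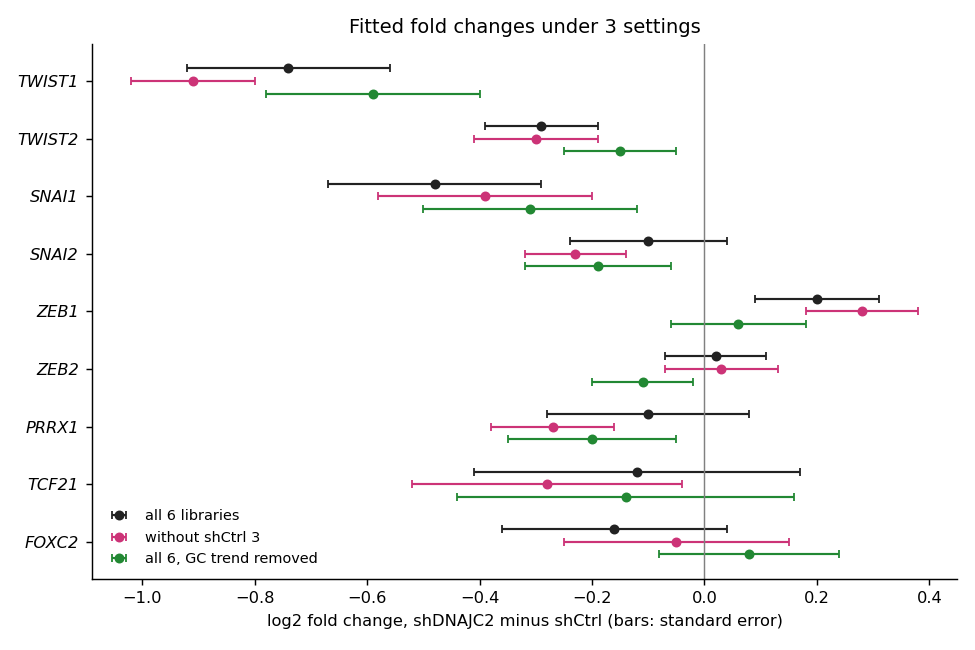
Fitted log2 fold change of each factor (shDNAJC2 minus shCtrl, horizontal axis) with its standard error as a bar, for all 6 libraries, without shCtrl 3, and for all 6 with the GC trend removed. TWIST1 was at −0.74, −0.91 and −0.59, and ZEB2 stayed between −0.11 and 0.03.

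SNAI1 and SNAI2 encode the Snail and Slug repressors, short-lived proteins whose level is set largely by phosphorylation and degradation. SNAI1 (ENSG00000124216, chromosome 20, 49982999 to 49988886, plus strand) was at 11.0, 11.9 and 13.6 CPM (shCtrl 1 to 3) versus 8.19, 10.8 and 7.20 CPM (shDNAJC2 1 to 3). The groups were separated by less than the counting error, since shDNAJC2 2 (181 counts, counting SD 0.8 CPM) lay just under shCtrl 1. Here shCtrl 3 was the highest of all 6 libraries. The means came to 12.2 ± 1.31 and 8.74 ± 1.87 CPM (SD, n = 3 each), and the log2 fold change was −0.48 with a 95% interval of −0.94 to −0.02 (unadjusted p 0.043 in edgeR). It was −0.39 without shCtrl 3 (edgeR adjusted p 0.131) and −0.31 with the GC trend removed, when the groups overlapped.

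SNAI2 (ENSG00000019549, chromosome 8, 48917604 to 48921740, minus strand) was the more abundant of the pair, at 54.6, 56.9 and 40.8 CPM (shCtrl 1 to 3) versus 46.5, 48.2 and 47.3 CPM (shDNAJC2 1 to 3). All 3 knockdown libraries fell between shCtrl 3, the lowest, and the other controls. The log2 fold change was −0.10 (95% interval −0.44 to 0.24), and −0.23 without shCtrl 3 (edgeR adjusted p 0.0856). Without shCtrl 3 and with the GC trend removed it was −0.30 and passed (edgeR adjusted p 0.0306).

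Shares within the Snail pair set shCtrl 3 apart from all other libraries. SNAI1 made up 16.8% and 17.3% of the pair's counts in shCtrl 1 and 2 and 25.0% in shCtrl 3 (95% Wilson interval 22.7 to 27.4%). In the knockdown libraries it made up 15.0%, 18.4% and 13.2%, and the highest upper bound among the other 5 libraries was 20.9%. The 2 genes differ in GC content, and what that contributed to the share was not tested. Their coding sequences were 67.2% identical, with a longest common run of 11 bases.

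ZEB1 and ZEB2 encode large 2-handed zinc finger repressors, which microRNAs of the miR-200 family hold down in epithelial cells. ZEB1 (ENSG00000148516, chromosome 10, 31318495 to 31529814, plus strand) was at 94.9, 88.5 and 106 CPM (shCtrl 1 to 3) versus 119, 112 and 101 CPM (shDNAJC2 1 to 3). The groups overlapped only through shCtrl 3 and shDNAJC2 3. The log2 fold change was 0.20 (95% interval −0.07 to 0.47), 0.28 without shCtrl 3 (edgeR adjusted p 0.0656) and 0.06 with the GC trend removed. When libraries were scaled by their totals alone, at a log2 fold change of 0.15, the groups no longer overlapped.

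ZEB2 (ENSG00000169554, chromosome 2, 144364364 to 144524583, minus strand) had the smallest fitted difference of the 9. It was at 46.6, 44.4 and 46.2 CPM (shCtrl 1 to 3) versus 47.6, 47.3 and 44.4 CPM (shDNAJC2 1 to 3). Its log2 fold change was 0.02 with a 95% interval of −0.20 to 0.24. The sign turned with the scaling, to −0.03 by library totals and −0.11 with the GC trend removed. ZEB1 made up 67.1%, 66.6% and 69.7% of the pair's counts in the controls and 71.3%, 70.4% and 69.6% in the knockdown. The shares of shCtrl 1 and 2 were the lowest, and that of shCtrl 3 lay between those of shDNAJC2 3 and shDNAJC2 2. Their coding sequences were 66.0% identical, with a longest common run of 20 bases.

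**Figure D3:**
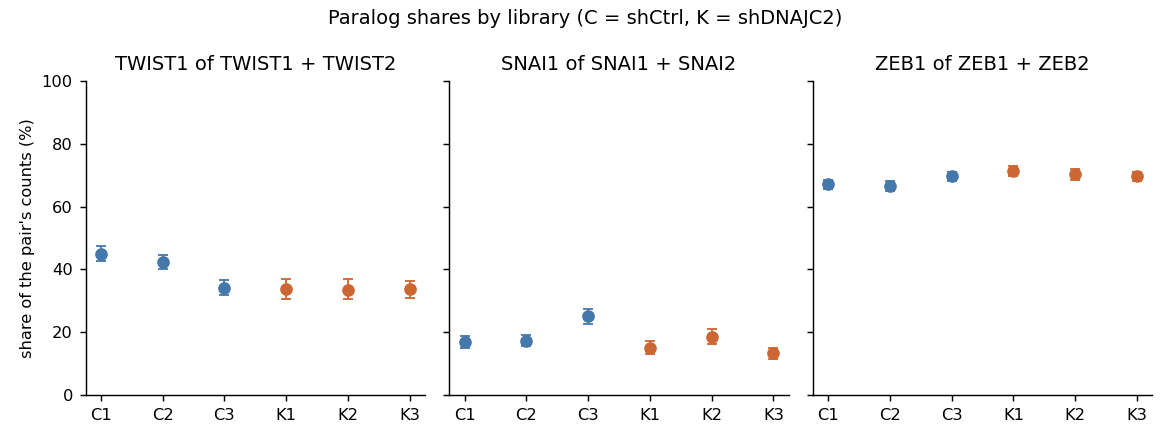
Share of each pair's counts held by TWIST1, SNAI1 and ZEB1 (vertical axis, percent) in shCtrl 1 to 3 (C1 to C3, blue) and shDNAJC2 1 to 3 (K1 to K3, orange), with 95% Wilson intervals. The TWIST1 share was 34.1% in shCtrl 3 against 45% and 42.3% in the other controls, and the SNAI1 share was highest in shCtrl 3, at 25.0%.

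RefSeq promoter windows (GRCh38.p14, 300 bases around an annotated start) were found for 5 of the 9, namely PRRX1, ZEB2, TWIST2, TCF21 and ZEB1, with 11 windows in all. They were searched on both strands for CACCTG, the E-box form that SNAI and ZEB zinc fingers are known to bind, which 20.6% of all 35116 windows hold. Of the 11 windows 7 belong to ZEB1, and matches were found in 2 of those 7 and in none of the single windows of the other genes. By gene, 1 of 5 had a match, against 24.1% of all 27305 genes with a window. The window with 3 matches, chr10:31318966-31319265 on the plus strand, is shown because it has the most matches among the members' windows, with the matched bases in capitals (CACCTG, or CAGGTG where the match is on the other strand).
ZEB1: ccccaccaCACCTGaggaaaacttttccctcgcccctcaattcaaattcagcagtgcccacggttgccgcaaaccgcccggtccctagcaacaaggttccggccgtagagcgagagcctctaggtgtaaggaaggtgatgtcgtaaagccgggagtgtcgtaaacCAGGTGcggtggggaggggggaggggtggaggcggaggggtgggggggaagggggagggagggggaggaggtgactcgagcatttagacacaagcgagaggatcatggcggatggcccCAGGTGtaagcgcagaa
A match describes the sequence only, and no binding was measured here.

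PRRX1, a homeobox factor of limb and craniofacial mesenchyme (ENSG00000116132, chromosome 1, 170662728 to 170739419, plus strand), was at 40.4, 39.5 and 26.7 CPM (shCtrl 1 to 3) versus 36.0, 32.7 and 30.8 CPM (shDNAJC2 1 to 3). As for SNAI2, every knockdown library lay between shCtrl 3 and the other controls. The log2 fold change was −0.10 (95% interval −0.52 to 0.32), and −0.27 without shCtrl 3 (edgeR adjusted p 0.0889). It passed, at −0.34, without shCtrl 3 and with the GC trend removed (edgeR adjusted p 0.0166). FOXC2, a forkhead factor of vascular and paraxial mesenchyme (ENSG00000176692, chromosome 16, 86566829 to 86569728, plus strand), was the lowest of the 9 at 5.21, 5.04 and 6.23 CPM (shCtrl 1 to 3) versus 4.07, 4.85 and 5.81 CPM (shDNAJC2 1 to 3). With 78 to 149 counts a library its groups overlapped, and the log2 fold change of −0.16 (95% interval −0.64 to 0.32) turned to 0.08 when the GC trend was removed.

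Over the 9 genes, shCtrl 3 lay nearer to the knockdown mean than to shCtrl 1 and 2 for 6, and nearer to shCtrl 1 and 2 for TWIST2, SNAI1 and FOXC2. DNAJC2 was of the second kind. The 6 include ZEB2, whose mean of shCtrl 1 and 2 (45.5 CPM) and knockdown mean (46.4 CPM) differed by less than its counting SD in shCtrl 3 (1.4 CPM). The same count was not made over all genes, so how ordinary it is was not tested.

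Levels of different genes were compared per kilobase of the longest annotated transcript. TWIST2 was the first or second most abundant in every library, at a median of 25.0 CPM per kb (range 23.0 to 30.6). TCF21 followed at a median of 21.0 (16.8 to 30.9), SNAI2 at 16.9 (14.4 to 20.1), ZEB1 at 16.5 (14.1 to 18.9) and TWIST1 at 11.1 (9.84 to 18.9). Each of these ranges overlaps that of its neighbour, and TCF21, SNAI2 and ZEB1 changed order between libraries. PRRX1 had a median of 8.02 CPM per kb (6.23 to 9.44), SNAI1 6.48 (4.27 to 8.07) and ZEB2 4.84 (4.63 to 4.97), and neighbours among these again overlapped. FOXC2 was last in all 6 libraries at 1.77 CPM per kb (1.40 to 2.15), below the lowest value of ZEB2. TWIST1 ranked 4 in shCtrl 1 and 2 and 5 in shCtrl 3 and all knockdown libraries. With the summed exons of a gene as its length, ZEB2, which has long annotated exons, fell to 1.77 to 1.90 CPM per kb, so that it and FOXC2 overlapped. That length also changed other places in the order. TCF21 was then above TWIST2 in shCtrl 1, shCtrl 2 and shDNAJC2 3 and below it in the other 3 libraries, and SNAI1 ranked 6 and PRRX1 7 in every library.

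**Figure D4:**
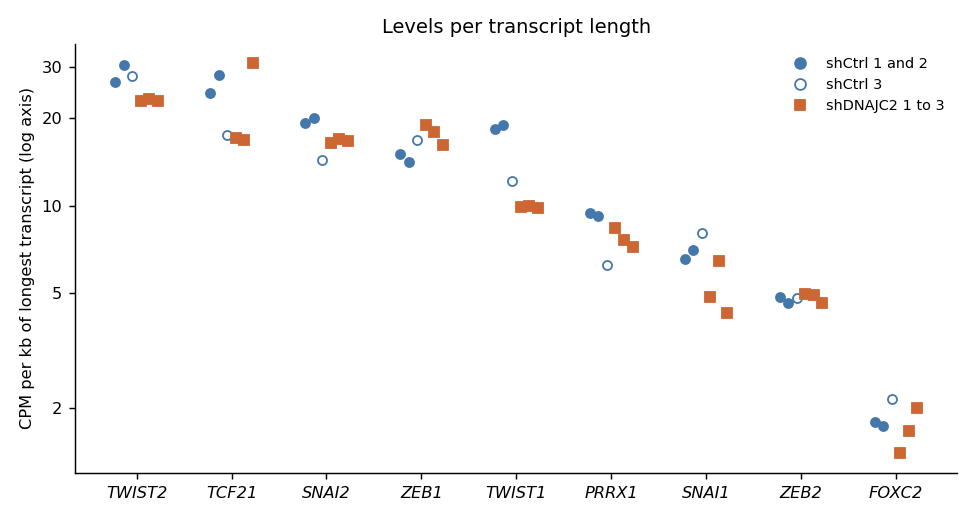
Level of each factor per kilobase of its longest transcript (log axis) in shCtrl 1 and 2 (filled blue circles), shCtrl 3 (open circle) and shDNAJC2 1 to 3 (orange squares), ordered by median. TWIST2 had a median of 25.0 and FOXC2 of 1.77 CPM per kb.

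The bHLH factors need E proteins as partners, and ID proteins sequester those partners. Of 7 such genes 0 were called over all 6 libraries and all 7 log2 fold changes were negative (median −0.43, against −0.02 for all genes). TCF3, which encodes the E proteins E12 and E47, was at 183, 188 and 200 CPM (shCtrl 1 to 3) versus 128, 152 and 143 CPM (shDNAJC2 1 to 3), so that shCtrl 3 stood with the controls. Its log2 fold change was −0.43 (95% interval −0.69 to −0.18, unadjusted p 0.00544 in edgeR), and its GC content was 61.2%. It was −0.22 once the GC trend was removed. ID2 was at 157, 161 and 36.3 CPM (shCtrl 1 to 3) versus 41.9, 39.7 and 59.8 CPM (shDNAJC2 1 to 3). ID1 was at 343, 385 and 96.8 CPM versus 88.7, 97.9 and 225 CPM. For both ID genes shCtrl 3 was within or below the knockdown range. Without shCtrl 3, 5 of the 7 fell and 0 rose in edgeR, with log2 fold changes of −0.39 for TCF3, −1.75 for ID2 and −1.40 for ID1, where 17.0% of all genes fell and 17.8% rose. TCF3 was no longer called once the GC trend was also removed (−0.19, edgeR adjusted p 0.0832).

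Of 22 other factors linked to mesenchyme 14 were tested, with 0 called, 3 positive and 11 negative log2 fold changes and a median of −0.42. FOXF2, a forkhead factor of gut and palate mesenchyme, was at 37.7, 39.5 and 23.4 CPM (shCtrl 1 to 3) versus 17.2, 21.1 and 20.9 CPM (shDNAJC2 1 to 3), lower without overlap as TWIST1 was. PRRX2, the relative of PRRX1, was at 48.0, 49.0 and 7.41 CPM and at 6.89, 6.88 and 10.3 CPM, so that shCtrl 3 differed from the other controls much more than for PRRX1. NFATC4 was at 43.9, 41.6 and 15.3 CPM and 11.6, 13.6 and 20.6 CPM. Of the 14 tested, 2 were lower without overlap and 0 higher, against 8.43% and 7.33% of all genes. GC contents were 63.6% for FOXF2, 69.0% for PRRX2 and 58.6% for NFATC4. With the GC trend removed, log2 fold changes went from −0.76 to −0.52, from −2.11 to −1.84 and from −1.14 to −0.98. Without shCtrl 3, 2 of 16 tested rose and 5 fell in edgeR, with log2 fold changes of −0.96 for FOXF2, −2.57 for PRRX2 and −1.47 for NFATC4, against 17.8% and 17.0% of all genes.

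Of 13 genes for corepressors and chromatin regulators that work with SNAI and ZEB proteins, 0 were called, and the median log2 fold change was −0.01. SMARCA4, a chromatin remodelling ATPase, was at 254, 259 and 241 CPM (shCtrl 1 to 3) versus 173, 198 and 194 CPM (shDNAJC2 1 to 3), lower without overlap. The Polycomb gene SUZ12 was at 70.1, 69.1 and 64.6 CPM and 92.4, 77.1 and 77.1 CPM, higher without overlap. BMI1, another Polycomb gene, was at 33.5, 30.6 and 41.0 CPM against 51.1, 45.8 and 40.5 CPM, which overlapped. SMARCA4 has a GC content of 61.4% and SUZ12 and BMI1 of 38.0% and 39.1%, so their directions went with GC content too. After removal of the GC trend, log2 fold changes went from −0.42 to −0.20 for SMARCA4, from 0.28 to 0.13 for SUZ12 and from 0.39 to 0.25 for BMI1. Without shCtrl 3, 3 of the 13 rose and 3 fell in edgeR, among them BMI1 (0.52) and SMARCA4 (−0.44), against 17.8% and 17.0% of all genes.

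Genes that govern turnover of SNAI and TWIST proteins had a median of 0.06 over 13 tested, with 0 called. The ubiquitin ligase subunit gene FBXO45 was at 26.5, 25.5 and 29.9 CPM (shCtrl 1 to 3) versus 38.8, 31.9 and 34.0 CPM (shDNAJC2 1 to 3), without overlap. FBXO11, another ligase subunit gene, was at 77.0, 78.6 and 80.3 CPM and 102, 87.8 and 86.7 CPM, also without overlap, while the deubiquitinase gene PSMD14 overlapped at 117, 120 and 130 CPM against 164, 154 and 129 CPM. Log2 fold changes were 0.35, 0.23 and 0.29. Without shCtrl 3, 2 rose and 1 fell in edgeR (17.8% and 17.0% of all genes), and FBXO45 was among those that rose (0.43). With the GC trend removed over all 6 libraries FBXO11 came to 0.11 and PSMD14 to 0.08.

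TGF-beta signalling is a main inducer of these factors. Of 17 genes for ligands, receptors, SMADs and other regulators of the pathway, 0 were called, with a median of −0.02. The ligand gene TGFB1 was at 200, 206 and 203 CPM (shCtrl 1 to 3) versus 148, 168 and 165 CPM (shDNAJC2 1 to 3), a log2 fold change of −0.34 (95% interval −0.57 to −0.10). The receptor gene TGFBR1 was at 38.0, 41.5 and 40.9 CPM and 58.2, 49.0 and 50.8 CPM, a log2 fold change of 0.39 (95% interval 0.13 to 0.65). Neither overlapped between groups and for both shCtrl 3 stood with the controls, and their GC contents were 63.5% and 39.0%. Removing the GC trend brought TGFB1 to −0.09 and TGFBR1 to 0.26. The inhibitory SMAD6 was at 50.5, 53.5 and 12.6 CPM and 10.7, 12.5 and 18.1 CPM. Without shCtrl 3, 2 of the 17 rose and 4 fell in edgeR, with log2 fold changes of 0.41 for TGFBR1, −0.33 for TGFB1 and −1.90 for SMAD6 (17.8% and 17.0% of all genes). TGFB1 was no longer called once the GC trend was also removed (−0.11, edgeR adjusted p 0.292).

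Epithelial genes of the kind these repressors silence included many at low or zero counts in both groups. CDH1 and GRHL2 had 0 counts in all 6 libraries, which allows up to 0.115 to 0.179 CPM (3 counts), and 12 of 31 such genes were too low to test. Of the 19 tested 0 were called, 5 were positive and 14 negative, with a median of −0.17. KRT19 was at 2.42, 2.18 and 2.43 CPM (shCtrl 1 to 3) versus 1.51, 1.14 and 0.875 CPM (shDNAJC2 1 to 3), and CLDN4 at 5.49, 4.70 and 2.80 CPM and 2.19, 2.33 and 2.03 CPM. PKP3, a desmosome gene, was at 2.66, 2.10 and 1.80 CPM and 1.2, 1.62 and 1.27 CPM. All 3, picked by their small p, were lower without overlap, at low levels. Of the 19 tested, 4 were lower without overlap and 1 (OCLN) higher, against 8.43% and 7.33% of all genes. Without shCtrl 3, 2 of 21 rose and 5 fell in edgeR, against 17.8% and 17.0% of all genes. Those that rose were CLDN1 (2.51) and KLF4 (0.82), and those that fell included KRT19 (−0.98), CLDN4 (−1.22) and PKP3 (−0.81). With the GC trend also removed, KRT19 (−0.77, edgeR adjusted p 0.0848) and PKP3 (−0.56, adjusted p 0.0916) were no longer called.

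All 31 mesenchymal effector genes were expressed, and 0 were called, with 8 positive and 23 negative log2 fold changes and a median of −0.29. At an unadjusted p under 0.05, 13 were lower and 0 higher, against 7.33% and 4.0% of all genes. Without overlap between the groups, 8 were lower and 1 higher, against 8.43% and 7.33% of all genes. COL5A1, a fibrillar collagen gene, was at 126, 125 and 59.1 CPM (shCtrl 1 to 3) versus 45.5, 50 and 56.4 CPM (shDNAJC2 1 to 3). TAGLN, an actin-binding protein gene, was at 160, 156 and 112 CPM and 98.9, 102 and 73.3 CPM, and the receptor gene PDGFRB at 125, 128 and 95.9 CPM and 76.6, 82.6 and 91.9 CPM. All 3 were lower without overlap, with shCtrl 3 the lowest control, and their GC contents were 60.3%, 57.2% and 57.6%. Without shCtrl 3, 5 of the 31 rose and 13 fell in edgeR, with log2 fold changes of −1.31 for COL5A1, −0.79 for TAGLN and −0.59 for PDGFRB (17.8% of all genes rose and 17.0% fell). These 3 stayed called when the GC trend was also removed, at −1.12, −0.64 and −0.45. The intermediate filament gene VIM and the cadherin gene CDH2, chosen after their values were seen because they are common markers of the transition, had mixed values. VIM was at 3320, 3520 and 4350 CPM and 3700, 3820 and 2960 CPM, and CDH2 at 103, 98.0 and 160 CPM and 172, 156 and 125 CPM, with CDH2 rising by 0.59 without shCtrl 3 (edgeR adjusted p 0.0121).

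**Figure D5:**
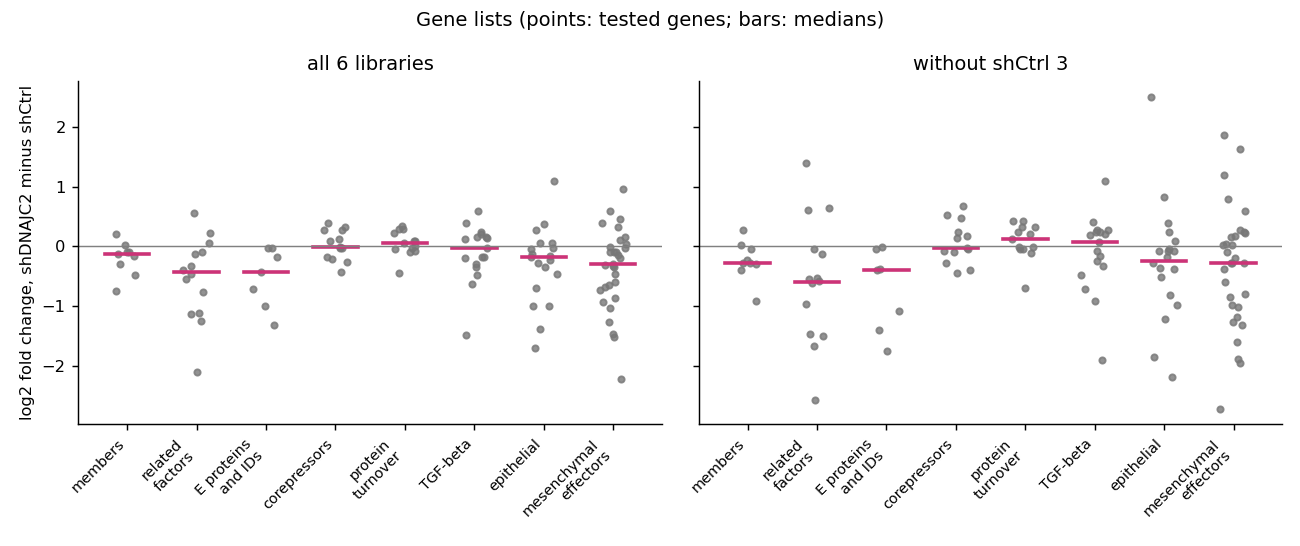
Log2 fold change (shDNAJC2 minus shCtrl) of each tested gene (points) and the median (bars) for the 9 factors and 7 related gene lists, over all 6 libraries (left) and without shCtrl 3 (right). Points in both panels are genes tested over all 6 libraries, and medians on the right also cover genes tested only there. Over all 6 libraries the factors ran from −0.74 to 0.20, with a median of −0.12. The mesenchymal effectors, a longer list, ran from −2.22 to 0.97, with a median of −0.29.

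Among the 11345 genes with a mean of at least 5 CPM, those whose log2 CPM ran most closely with a member over the 6 libraries are named as a description, since the libraries share their depth and a common axis of variation. For TWIST1 they were ACACA (Pearson r 0.999), USP22 (0.999) and VPS52 (0.998), and for TWIST2 FBLN1 (0.987), KDELR1 (0.986) and DDB1 (0.983). ACACA, the acetyl-CoA carboxylase gene, was at 88.2, 89.6 and 78.2 CPM (shCtrl 1 to 3) versus 72.9, 73.5 and 73.7 CPM (shDNAJC2 1 to 3). TCF21 ran with ACSS2 (0.994), EIF4G3 (0.988) and EMSY (0.988), SNAI1 with TRPC4AP (0.992), RUVBL2 (0.992) and MEX3D (0.991), and SNAI2 with RBSN (0.996), NIPSNAP2 (0.996) and ENSG00000124593 (0.994). ZEB1 ran with ZNF354A (0.998), MAN2A1 (0.997) and DPH5 (0.997), ZEB2 with PBDC1 (0.983), PDLIM5 (0.956) and HNRNPH3 (0.940), PRRX1 with RBMS3 (0.997), FERRY3 (0.992) and IDI1 (0.990), and FOXC2 with DUS1L (0.987), SELENOO (0.985) and SPTBN5 (0.984). Between members, the highest r was 0.91 for SNAI2 with PRRX1, followed by 0.85 for TWIST1 with TWIST2, and the lowest were −0.87 for ZEB2 with TCF21 and −0.86 for TWIST1 with ZEB1.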

How the data were processed

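mRNA-enriched libraries of 6 samples (3 shCtrl, 3 shDNAJC2) had been sequenced as paired ends, per the labels' protocols. The authors deposited unnormalized gene-level read counts, judged from whole values whose sums differ between libraries. Reads were placed on GRCh38, also named hg38, according to the submitters' processing notes. For the aligner, the counter, its annotation and its use of strand, no source used here gives details.

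Knockdown was tested against control by the quasi-likelihood F test of edgeR 4.0.16, run in R 4.3.3 (two-sided, TMM, filterByExpr, group as the only term, Benjamini-Hochberg over all tested genes, threshold 0.05). Standard errors were taken from the F statistic, and CPM values are TMM-normalized. DESeq2 1.42.0 and limma-voom (limma 3.58.1) were alternatives, beside other size factors and filters, a replicate block, leaving out each library and a GC correction (lowess span 0.3). The script was checked on simulated counts. Positions, lengths and GC content come from GENCODE 29, and GC content was known for 13811 of the 13988 tested genes. Coding sequences were aligned with Biopython 1.88. Members, lists and tests were chosen with earlier results of these data known. The text names all members and DNAJC2, up to 3 genes with the smallest p from each of 11 other lists (those of the marker lists where a result needs them), and the 3 genes most alike each member. Further genes, such as VIM, CDH2, OCLN, CLDN1 and KLF4, were named after their values were seen.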

Additional observations from a re-analysis of the deposited data

How the results depend on the processing

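The count of all genes called, 0 higher and 0 lower in edgeR, held under other size factors, both other filters, limma-voom, the GC correction, the block and a threshold of 0.01 on the adjusted p. It became 4 and 14 with DESeq2. Leaving out 1 library gave 0 to 2532 higher and 0 to 2413 lower, where the upper values are those without shCtrl 3 and the other 5 gave 0. Members called lower numbered 0 to 1 when a library was left out, and 0 were called higher. Without shCtrl 3 and with the GC trend removed, a setting chosen after seeing the data, 2854 genes were called higher and 2436 lower, and 3 members lower (TWIST1, SNAI2 and PRRX1).

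TWIST1, TWIST2 and SNAI1 kept a negative and ZEB1 a positive log2 fold change under all 15 alternatives run, SNAI2 came to −0.00 without shCtrl 2, and the range for TWIST1 was −0.91 to −0.59. The sign of ZEB2 turned with library totals (−0.03), the GC trend removed (−0.11) and that setting without shCtrl 3 (−0.06), and that of FOXC2 with the GC trend removed (0.08, and 0.16 without shCtrl 3). Leaving out 1 library gave −0.27 to 0.02 for PRRX1, −0.45 to 0.05 for TCF21 and −0.16 to 0.03 for VIM. KRT8 turned to 0.04 without shCtrl 3 and with the GC trend removed. CD14, at 0.697 to 1.97 CPM, turned to 0.02 with the GC trend removed, 0.01 by limma-voom, 0.48 without shCtrl 3 (−0.40 to 0.48 over libraries left out) and 0.63 with both. DNAJC2 passed by DESeq2 (−0.72, adjusted p 0.04997), without shCtrl 3 (−0.65, within −0.81 to −0.60 over libraries left out) and without it and with the GC trend removed (−0.71). By library totals 1 member, ZEB1, was higher without overlap. In each case the cause was not tested.

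Median log2 fold changes of lists moved as follows. With library totals they were −0.06 for corepressors and 0.01 for turnover genes. With the GC trend removed they were −0.08 for epithelial, −0.16 for mesenchymal and 0.09 for renal epithelial genes. Leaving out 1 library gave −0.68 to −0.31 for related factors, −0.02 to 0.07 for corepressors, 0.06 to 0.13 for turnover genes, −0.13 to 0.08 for TGF-beta genes, −0.16 to 0.09 for renal epithelial, 0.17 to 0.71 for endothelial and −0.33 to 0.16 for immune markers.

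Same-numbered libraries did not deviate together (r of −0.38, −0.52 and −0.66 over tested genes). These values cannot decide whether the numbers pair the libraries, because shCtrl 3 and shDNAJC2 3 each lay far from their group. Whether same-numbered libraries were prepared together was not tested. With a replicate block 0 genes and 0 members were called, and TWIST1 was at −0.71. No library correlated best with its own number. FOXC2, with 78 counts at least, has a counting SD of up to 11% a library, and depth limits it most.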
